A study of Sus scrofa with 30 samples.

Results

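The nuclear genes for subunits of mitochondrial complexes I, III, IV and V were followed in pig embryos over 3 days of development before implantation. They were chosen by gene symbol, as every symbol that starts with NDUFA, NDUFB, NDUFC, NDUFS or NDUFV and a digit, with UQCR, with COX4 to COX8 or with ATP5, or that reads CYC1. Of the 13103 genes counted in all embryos, 63 carried such a symbol: 36 of complex I, 2 of complex III, 8 of complex IV and 17 of complex V. NDUFA4 is placed with complex IV, where its protein is now known to belong. ATP5S and ATP5SL match by symbol although they do not encode structural subunits of the ATP synthase, and they stay in every count. COX4I1, COX5A, CYC1, UQCRFS1 and the 13 subunits encoded by mitochondrial DNA were not analysed here.

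The samples were 30 single embryos flushed from the uterus, 5 female and 5 male on each of Days 8, 10 and 12 after insemination. The mothers were crossbred gilts (German Landrace x Pietrain), 4 gilts for each day, and all were inseminated with sperm of the same boar. The labels name no treatment or genetic change for any group. Per the study's methods, the cycles of all gilts were synchronised with Altrenogest, and the hormones PMSG and human chorionic gonadotropin followed before insemination. The sex of the embryos was read from their DNA, and embryos were picked for RNA quality, with female and male embryos of the same sow among those of a day. Which gilt carried which embryo is not given in the labels, so littermates could not be told from unrelated embryos, and p-values measure the spread between these embryos. Each library was made from messenger RNA of a whole embryo, that is the embryonic disc together with the trophectoderm and the other extraembryonic cells. In such bulk samples, fewer cells of a type and less RNA per cell cannot be told apart.

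Oxidative phosphorylation passes electrons from NADH and succinate through complexes I to IV to oxygen, pumps protons across the inner mitochondrial membrane and uses their return to make ATP at complex V. Complexes I, III, IV and V are built from subunits of both genomes, so that nuclear subunits must be matched with the few that mitochondrial DNA encodes. In early embryos mitochondria are inherited from the oocyte and mature while the trophectoderm, the outer layer that becomes placenta, expands, which in the pig happens as the spherical blastocyst elongates into a filament.

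Total counts ran from 6068212 to 34002508 per embryo, with medians of 20163313, 22829955 and 20800355 on Days 8, 10 and 12. The smallest library was d12_f_245, a Day 12 female, and the next had 14882265 counts. Levels are given in CPM, the count of a gene relative to the size of its library after scaling by the trimmed mean of M-values (TMM). A member was called when edgeR's quasi-likelihood test gave a Benjamini-Hochberg adjusted p (FDR) under 0.05 over all genes. SE marks the standard error of a log2 fold change. The keratin KRT8 of the trophectoderm lay at 6139 CPM or more in every embryo. The epiblast genes NANOG, SOX2 and PRDM14 had 3 counts or fewer in every Day 12 embryo, after Day 8 medians of 3.65, 0.822 and 1.6 CPM. Other epiblast genes had higher medians on Day 12 than on Day 8: DPPA5 (399 against 3.54 CPM), DNMT3B (754 against 303 CPM) and TDGF1 (81.3 against 14.2 CPM). Of 10 epiblast markers, 4 were called higher and 6 lower on Day 12 than on Day 8.

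Embryos d12_f_245 and d12_f_271, both Day 12 females, stood apart from the other 8 embryos of their day. They were the highest pair of Day 12 for 31 of the 63 members (49.2%), against 14.9% of all genes. The embryos of this pair also differed from each other. While d12_f_271 was the highest of Day 12 for 51 members and the lowest for 0, d12_f_245 was highest for 3 and lowest for 11. The summed level of complex V was the lowest of Day 12 in d12_f_245 (7149 CPM) and the highest in d12_f_271 (10872 CPM). The median log2 difference of this pair from the other 8 embryos was 0.64 over the members and -0.11 over all genes. It followed the length of the gene on the chromosome, at 0.45, 0.06, -0.31 and -0.55 when all genes were split by span into 4 equal classes from the shortest to the longest. The members are short, with a median span of 7063 bp against 25605 bp for all genes, and 39 of the 63 (61.9%) fell in the shortest class. NDUFS1, which spans 38088 bp, was the member for which this pair lay lowest (log2 difference -1.18), while NDUFS8, NDUFA3 and NDUFB7 lay furthest above the others (1.47, 1.47 and 1.41). The part of gene length in these values was not tested, and a number of Day 12 values are also given without this pair.

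Summed over all members, the level was higher in every Day 10 embryo than in every Day 8 embryo, and its median was lowest on Day 12. As a share of all counts, without TMM scaling, the ranges of Day 8 (1.62% to 1.76%) and Day 10 (1.62% to 1.85%) overlapped. The sum ran from 15288 to 16979 CPM on Day 8 (median 16280) and from 17907 to 20235 CPM on Day 10 (median 18906). On Day 12 it ran from 12572 to 20473 CPM, with a median of 13550. On Day 12 the sum of d12_f_271 alone lay above 15441 CPM, and the median without the apart pair was 13144 CPM. Complex V supplied the largest part of the sum on every day, with medians of 10241, 11740 and 8010 CPM.

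**Figure D1:**
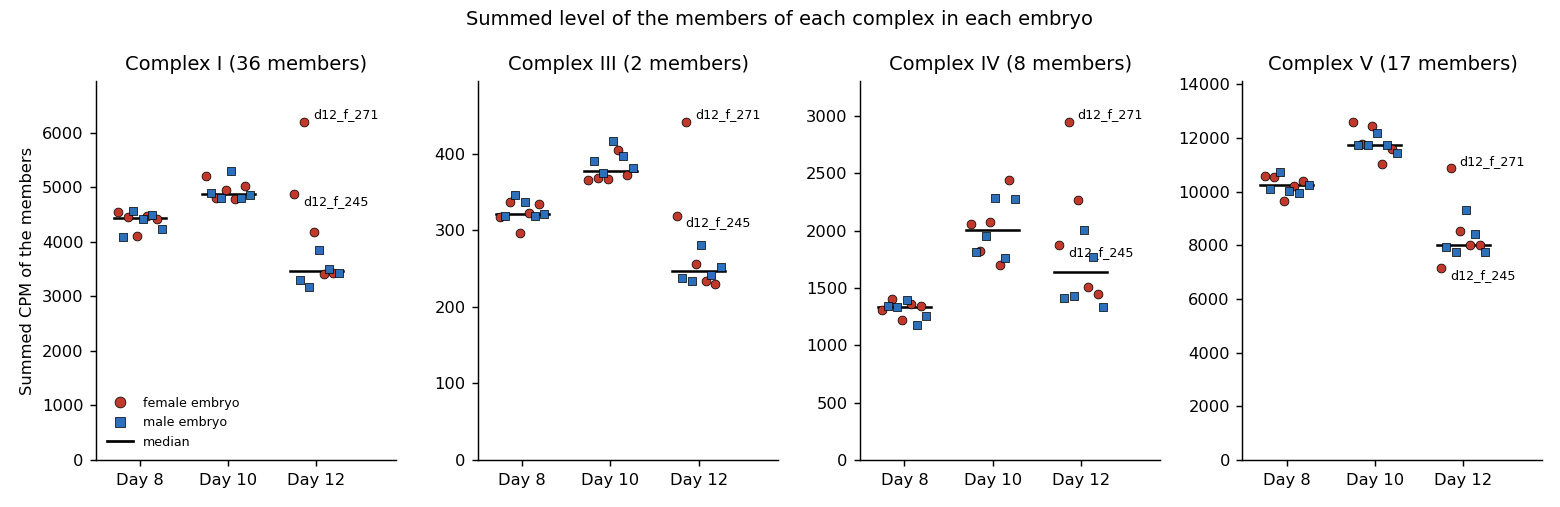
Summed level of the members of each complex (CPM, TMM scaled, axis from 0) in each of the 30 embryos by day, with bars at the median of 10 embryos and the 2 apart Day 12 embryos named. Complexes I, III and V had their highest medians on Day 10 and their lowest on Day 12 (as a share of all counts, complex I was at 0.458% on Day 8 and 0.454% on Day 10), while complex IV stayed above its Day 8 median on Day 12.

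The plot of summed levels shows that the 4 complexes did not follow one course. Complex I had a median of 4445 CPM on Day 8, 4874 CPM on Day 10 and 3470 CPM on Day 12. Complex III, here only UQCRB and UQCR10, stood at 321.6, 377.4 and 246.6 CPM. Complex IV went from 1338 to 2004 and 1639 CPM, with a Day 12 median of 1478 CPM without the apart pair. These sums are dominated by the most counted genes and carry no test.

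Between Day 8 and Day 10, 38 of the 63 members were called higher (60.3%), where 29.4% of all genes were, and 3 were called lower (4.76%), where 26.7% of all genes were. The 3 lower members were NDUFS3, NDUFS4 and NDUFA9, all of complex I. The median log2 fold change of the members was 0.30 against 0.03 over all genes, and 53 of 63 lay above 0. All 8 members of complex IV were called higher (median 0.67), as were both of complex III (0.25), 13 of 17 of complex V (0.30) and 15 of 36 of complex I (0.24). Without d10_f_454 or without d10_m_453, 1 member in place of 3 was called lower. With library size as the only scaling, the median over all genes was -0.15 and that of the members 0.12. The difference was 0.27 under both scalings. A change of scaling moves all genes of a comparison by nearly the same amount, so this difference is no check of the result. With library size alone, 18 members were called higher and 9 lower, against 21.3% and 36.8% of all genes.

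Between Day 10 and Day 12, 37 members were called lower (58.7%), against 27.1% of all genes, and 2 were called higher (3.17%), against 32.6% of all genes. Since both intervals share the Day 10 embryos, their values are set side by side and no overlap between them was counted. The median log2 fold change was -0.34 against 0.04 over all genes, and 53 of 63 members lay below 0. Lower calls fell on 20 of 36 members of complex I (median -0.32), both of complex III (-0.48), 13 of 17 of complex V (-0.38) and 2 of 8 of complex IV (-0.13). For complex IV, 5 of 8 were called lower at a median of -0.26 without the apart pair, and the median turned to 0.06 when library size was the only scaling. That scaling set the median over all genes to 0.24 and that of the members to -0.15, with 7 members called higher and 22 lower, against 43.8% and 17.5% of all genes. Without the apart pair, 52 members were called lower (82.5%) against 29.4% of all genes and 1 higher, and the median was -0.48 against 0.02.

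Over the whole span from Day 8 to Day 12, 18 members were called higher (28.6%) and 20 lower (31.7%), against 40.1% and 33.3% of all genes. The median was -0.05 against 0.09 over all genes and turned to 0.03 with upper quartile factors. Leaving out 1 embryo at a time, it ran from -0.18, without d12_f_271, to -0.01. Without the apart pair, 11 members were called higher (17.5%) and 33 lower (52.4%), against 40.5% and 34.9% of all genes, at a median of -0.22. Of complex IV, 7 of 8 members were called higher and 0 lower, and 6 of 8 higher without the apart pair. With all embryos kept, the largest net rises after COX7A1 (4.23) were those of COX6B (0.86), NDUFB7 (0.85), COX7C (0.79), NDUFA3 (0.67) and NDUFS5 (0.64). Without the apart pair, these 5 stood at 0.64, 0.45, 0.63, 0.24 and 0.40. The largest net falls with all embryos kept were those of NDUFC1 (-0.92), NDUFA9 (-0.87), NDUFS1 (-0.85), NDUFS4 (-0.60) and ATP5A1 (-0.54), and without the pair NDUFA6 (-0.63) had passed ATP5A1 (-0.50). The stricter rule also asks for a change of over 1 on the log2 scale at an FDR of 0.001. It called 1 member, COX7A1, in each of the 3 comparisons. Of all genes it called 14.1% (Day 10 against Day 8), 23.3% (Day 12 against Day 10) and 32.5% (Day 12 against Day 8). COX7A1 was missing from the filtered table of Day 8, so its calls against Day 8 go with how it was kept.

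**Figure D2:**
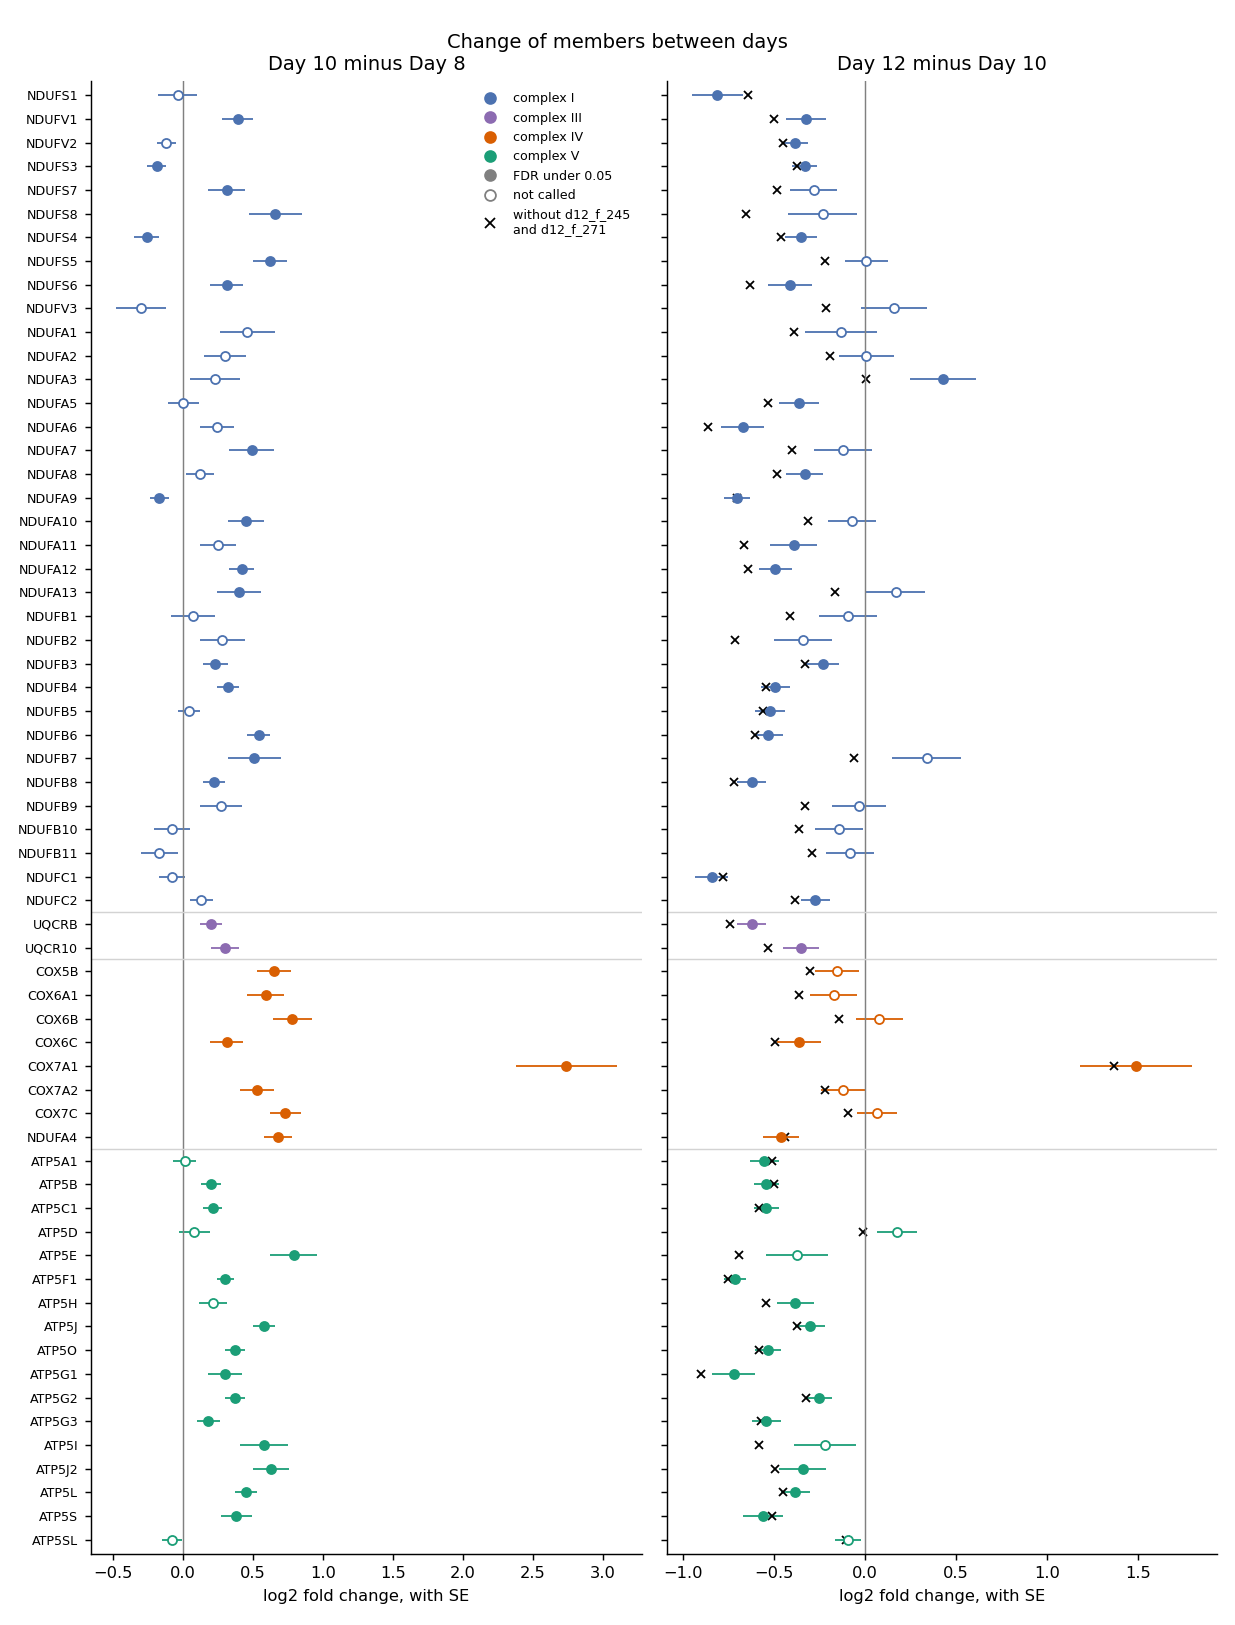
Log2 fold change of 62 members, with bars of 1 standard error, for Day 10 minus Day 8 (left) and Day 12 minus Day 10 (right). Filled points passed an FDR of 0.05 and crosses in the right panel give the value without the 2 apart embryos. On the left 10 of 62 points lie below 0 and on the right 52 of 62 do.

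The forest plot of fold changes shows that changes beyond 2-fold were rare among the members. Apart from COX7A1, no member changed by 1 or more on the log2 scale. Genes of like length were read beside the members. In the shortest class of genes, the median change from Day 8 to Day 10 was 0.12, with 32.6% called higher and 22.7% lower. The 39 members in it had a median of 0.31, with 25 called higher and 1 lower. From Day 10 to Day 12, this class had a median of 0.14, with 34.8% called higher and 19.7% lower, and its members -0.25, with 2 called higher and 19 lower. Without the apart pair, these medians were 0.01 for the class and -0.40 for its members, of which 1 was called higher and 31 lower (30.5% and 27.5% of the class). In the second class, the medians of genes and of the 18 members were -0.01 and 0.29 in the first interval and 0.02 and -0.44 in the second. In the third and the fourth class, which hold 4 and 2 members, the members lay below the genes in the first interval (-0.08 against -0.02 and -0.17 against 0.05) and in the second (-0.54 against -0.04 and -0.22 against 0.03). The members thus lay above genes of like span from Day 8 to Day 10 in the shorter classes and not in the longer ones, and below them from Day 10 to Day 12 in each class.

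Core subunits of complex I carry out electron transfer. NDUFS1, NDUFV1 and NDUFV2 form the module that takes electrons from NADH. NDUFS1 (chromosome 15, 109413726 to 109451813 of Sscrofa11.1), the large iron-sulfur subunit, ran from 339 to 475 CPM on Day 8 (median 386), from 358 to 418 CPM on Day 10 (median 394) and from 89.8 to 295 CPM on Day 12 (median 247). Its Day 12 embryos lay below all those of Day 10, with d12_f_245 lowest at 89.8 CPM. Its log2 fold change was -0.04 (SE 0.14, edgeR quasi-likelihood adjusted p = 0.816) from Day 8 to Day 10 and -0.81 (SE 0.14, adjusted p = 6.25e-06) from Day 10 to Day 12, the latter -0.64 without the apart pair. NDUFV1, which binds NADH and the flavin cofactor, rose from a median of 197 CPM (172 to 217) on Day 8 to 256 CPM (220 to 298.8) on Day 10 with no overlap, by 0.39 (SE 0.11, adjusted p = 0.00418), and not past the threshold with library size alone (0.21). On Day 12 it was at 184 CPM (142 to 357), with a log2 fold change of -0.32 (adjusted p = 0.0156) from Day 10, a call lost with library size alone (-0.12) or upper quartile factors (-0.24), and a value of -0.50 without the apart pair. NDUFV2, an iron-sulfur subunit next to NDUFV1, had medians of 179, 159 and 118 CPM and fell between Day 10 and Day 12 (log2 fold change -0.38, SE 0.07, adjusted p = 2.16e-05).

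The core subunits NDUFS3, NDUFS7 and NDUFS8 belong to the module that carries electrons to ubiquinone. NDUFS8 had 86.4 to 114 CPM on Day 8 (median 97.9), 119 to 192 CPM on Day 10 (median 152) and 76.2 to 270.8 CPM on Day 12 (median 96.9). It rose by 0.66 (SE 0.19, adjusted p = 0.00329), and its Day 10 embryos were all above those of Day 8. Its change from Day 10 to Day 12 was -0.23 (adjusted p = 0.299) over all embryos and -0.65 (adjusted p = 2.06e-06) without the apart pair. From Day 8 to Day 12 it was called higher by 0.44 (adjusted p = 0.0362), a value of 0.26 and not called without d12_f_245 or without d12_f_271, 0.01 without both, and -0.17 in male embryos alone. That NDUFS8 call was also lost, at 0.41 to 0.43, without d08_f_105, d08_f_130, d08_m_103, d08_m_136 or d12_f_289. NDUFS7, with medians of 100, 125 and 85.4 CPM, was called higher on Day 10 by 0.31 (adjusted p = 0.0404). This call was lost, at values from 0.26 to 0.31, when any 1 of d08_f_109, d08_f_124, d08_f_130, d08_m_103, d08_m_136, d10_f_315, d10_f_317, d10_f_336, d10_m_318, d10_m_321 and d10_m_333 was left out. NDUFS3 moved the other way, with medians of 192, 175 and 134 CPM, and fell in both intervals (log2 fold changes -0.19, adjusted p = 0.0281, and -0.33, adjusted p = 0.00027). Its first call was lost, at -0.16 or -0.17, without d08_f_105, d08_m_111, d08_m_133, d10_f_336, d10_f_454 or d10_m_453.

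The 29 accessory subunits of complex I surround and stabilise the core. From Day 8 to Day 10, 11 were called higher (37.9%, against 29.4% of all genes) and 2 lower (6.9%, against 26.7%). Values ran from -0.30 for NDUFV3, which was not called, to 0.62 for NDUFS5. From Day 10 to Day 12, 15 were called lower (51.7%, against 27.1% of all genes) and 1 higher (3.45%, against 32.6%). Without the apart pair, 23 were called lower (79.3%, against 29.4% of all genes) and 0 higher (against 33.4%). NDUFS5, on the intermembrane side, ran from 56.6 to 78.1 CPM on Day 8 (median 71.4), from 94.8 to 113 CPM on Day 10 (median 107) and from 77.3 to 195 CPM on Day 12 (median 91.8). It rose by 0.62 (SE 0.12, adjusted p = 0.000102) with no overlap, and its change in the second interval was 0.01 (adjusted p = 0.927), or -0.22 (adjusted p = 0.0109) without the apart pair. Of the other 28, NDUFB6 of the membrane arm had the next largest rise, from a median of 85.5 to 120 CPM (log2 fold change 0.54, adjusted p = 1.6e-06).

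NDUFA9, which sits where the matrix arm meets the membrane arm, fell throughout. It ran from 255 to 288.9 CPM on Day 8 (median 278), from 217 to 267 CPM on Day 10 (median 244.5) and from 116 to 190 CPM on Day 12 (median 150). All Day 12 embryos lay below all Day 10 embryos. The first change was -0.17 (SE 0.07, adjusted p = 0.0285), a call lost without d10_f_454 (-0.15) or d10_m_453 (-0.16), and the second was -0.70 (SE 0.07, adjusted p = 1.33e-10), which kept its value without the apart pair. NDUFC1, a small membrane subunit, ran from 61.8 to 76.4 CPM on Day 8 (median 70.6), from 53.2 to 75.7 CPM on Day 10 (median 68.1) and from 25 to 47.9 CPM on Day 12 (median 36). Its Day 12 values did not overlap with either earlier day, and its change from Day 10 to Day 12, -0.84 (SE 0.09, adjusted p = 1.03e-09), was the largest fall of a member in that interval with all embryos kept. Without the apart pair it was -0.78, and ATP5G1 (-0.90) and NDUFA6 (-0.86) had larger falls. NDUFS4, which holds the NADH module in place, fell in both intervals, from a median of 125 to 101 and then 78.4 CPM (log2 fold changes -0.26, adjusted p = 0.0136, and -0.35, adjusted p = 0.00106).

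Among further accessory subunits, NDUFA6 and NDUFB5 were called lower after Day 10 and not called before. NDUFA6, a member of the LYR protein family that also binds acyl carrier protein, changed by -0.67 (SE 0.12, adjusted p = 1.49e-05) from a median of 94.2 to 58.4 CPM. NDUFB5 of the membrane arm changed by -0.52 (adjusted p = 9.54e-07) from 103.5 to 68.7 CPM. NDUFB8, also of the membrane arm, had been called higher on Day 10 by 0.22 (adjusted p = 0.0194) and then changed by -0.62 (adjusted p = 6.89e-08) from 197 to 119 CPM. NDUFA3 and NDUFB7 were among the members furthest above the other Day 12 embryos in the apart pair. NDUFA3 had 27.7 to 38.9 CPM on Day 10 (median 32.4) and 26.1 to 90 CPM on Day 12 (median 33.1), and its call as higher (0.43, SE 0.18, adjusted p = 0.0421) became 0.01 (adjusted p = 0.928) without the pair, -0.11 in male embryos alone, and 0.26 without d12_f_245 or d12_f_271. That NDUFA3 call was also lost, at 0.41 to 0.44, without d10_f_315, d10_f_317, d10_f_433, d10_f_454, d10_m_318, d10_m_435, d10_m_453 or d12_f_289. NDUFB7 was called higher on Day 12 than on Day 8 by 0.85 (SE 0.19, adjusted p = 0.000199), by 0.45 (adjusted p = 0.0012) without the pair, and not in male embryos alone (0.28). NDUFA13, which was also described as GRIM-19, likewise stood 0.58 above Day 8 on Day 12 (adjusted p = 0.00185), with 0.24 (adjusted p = 0.0203) without the pair and 0.06, not called, in male embryos alone.

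In complex III, which passes electrons from ubiquinol to cytochrome c, only small subunits were among the members. UQCRB ran from 170 to 200 CPM on Day 8 (median 188), from 191 to 235 CPM on Day 10 (median 215) and from 109.3 to 216 CPM on Day 12 (median 130). It was called higher on Day 10 by 0.20 (SE 0.08, adjusted p = 0.0486) and lower on Day 12, with a log2 fold change of -0.62 (SE 0.08, adjusted p = 1.86e-07). All Day 12 embryos but d12_f_271, at 216 CPM, were below the Day 10 range. UQCR10 had medians of 140, 168 and 114 CPM, with log2 fold changes of 0.30 (adjusted p = 0.0151) and -0.35 (adjusted p = 0.00511), the latter -0.53 without the apart pair.

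Complex IV, cytochrome c oxidase, reduces oxygen, and all its members here are accessory to the catalytic core that mitochondrial DNA encodes. COX6B, on the intermembrane side, ran from 154 to 191 CPM on Day 8 (median 176), from 240 to 380 CPM on Day 10 (median 308) and from 222 to 578 CPM on Day 12 (median 273). Every Day 10 and every Day 12 embryo lay above every Day 8 embryo. Its rise was 0.78 (SE 0.14, adjusted p = 1.5e-05), and its later change was 0.08 (adjusted p = 0.636), or -0.14 (adjusted p = 0.237) without the apart pair. COX7C, a small transmembrane subunit, had 99.8 to 150 CPM on Day 8 (median 120), 171 to 265 CPM on Day 10 (median 193) and 148 to 344 CPM on Day 12 (median 196). It rose by 0.73 (SE 0.11, adjusted p = 3.56e-06) and then changed by 0.07 (adjusted p = 0.62), or by -0.09 (adjusted p = 0.386) without the pair. COX5B, a zinc-binding subunit on the matrix side, rose from a median of 164 CPM (145 to 174) to 252 CPM (204 to 302), by 0.65 (SE 0.12, adjusted p = 3.58e-05).

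COX5B, COX6A1 and COX7A2 differed in their second interval according to whether the apart pair was kept. COX5B changed by -0.15 (adjusted p = 0.293) with it and by -0.30 (adjusted p = 0.00881) without it. COX6A1, the widely expressed isoform of subunit 6A, had medians of 221, 345 and 256 CPM, rose by 0.59 (adjusted p = 0.000443) and then changed by -0.17 (adjusted p = 0.271) with the pair and -0.36 (adjusted p = 0.00489) without it. It was called higher on Day 12 than on Day 8 by 0.42 (adjusted p = 0.00647), which was 0.23 (adjusted p = 0.0509) without the pair and 0.16, not called, in male embryos alone. COX6C and NDUFA4, by contrast, were called lower on Day 12 with the pair kept, with log2 fold changes of -0.36 (adjusted p = 0.012) and -0.46 (adjusted p = 0.000198). NDUFA4 had 198 to 314 CPM on Day 8 (median 281), 384 to 581 CPM on Day 10 (median 432) and 243 to 413 CPM on Day 12 (median 307.4). It rose by 0.68 (SE 0.10, adjusted p = 1.08e-06), and its net difference of 0.22 from Day 8 to Day 12 (adjusted p = 0.0431) was lost, at values from 0.18 to 0.23, without any 1 of d08_f_105, d08_f_124, d08_m_111, d08_m_121, d08_m_133, d08_m_136, d12_f_271, d12_f_289, d12_f_297, d12_m_276 and d12_m_286. The assembly also lists a pseudogene under the symbol NDUFA4, so the counts of NDUFA4 may include reads of that copy.

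Subunit 7A of complex IV has a heart and skeletal muscle isoform, COX7A1 (chromosome 6, 45519225 to 45520721), and a widely expressed one, COX7A2. COX7A1 was close to absent on Day 8, with 0 to 6 counts in an embryo, 5 embryos at 3 counts or fewer and 35 counts over all 10. It had 8 to 58 counts on Day 10 and 32 or more on Day 12, or medians of 0.156, 0.958 and 2.62 CPM. The Day 10 embryos lay above all Day 8 embryos, and Day 12 overlapped with Day 10. Its log2 fold changes were 2.74 (SE 0.36, adjusted p = 2.19e-07) and 1.49 (SE 0.31, adjusted p = 0.000125), the second 1.37 without the apart pair and not called in male embryos alone (1.11). COX7A1 was missing from the filtered table of Day 8, so it entered the table of all embryos through its counts on later days. Its rise from Day 8 goes with how it was kept, and the p-value of that rise is no separate support. COX7A2 had 178 to 215 CPM on Day 8 (median 203), 232 to 353 CPM on Day 10 (median 284) and 206 to 465 CPM on Day 12 (median 218). COX7A2 rose by 0.53 (SE 0.12, adjusted p = 0.000374) and then changed by -0.12 (adjusted p = 0.416), or by -0.22 (adjusted p = 0.0463) without the pair. The share of COX7A1 in the counts of both isoforms had medians of 0.0791% on Day 8, 0.36% on Day 10 and 1.06% on Day 12. Its range of 0.801% to 2.07% on Day 12 lay above those of Day 10 (0.163% to 0.658%) and Day 8 (0% to 0.154%), a share within 1 library that does not depend on scaling. In every embryo, most counts of subunit 7A thus came from COX7A2.

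**Figure D3:**
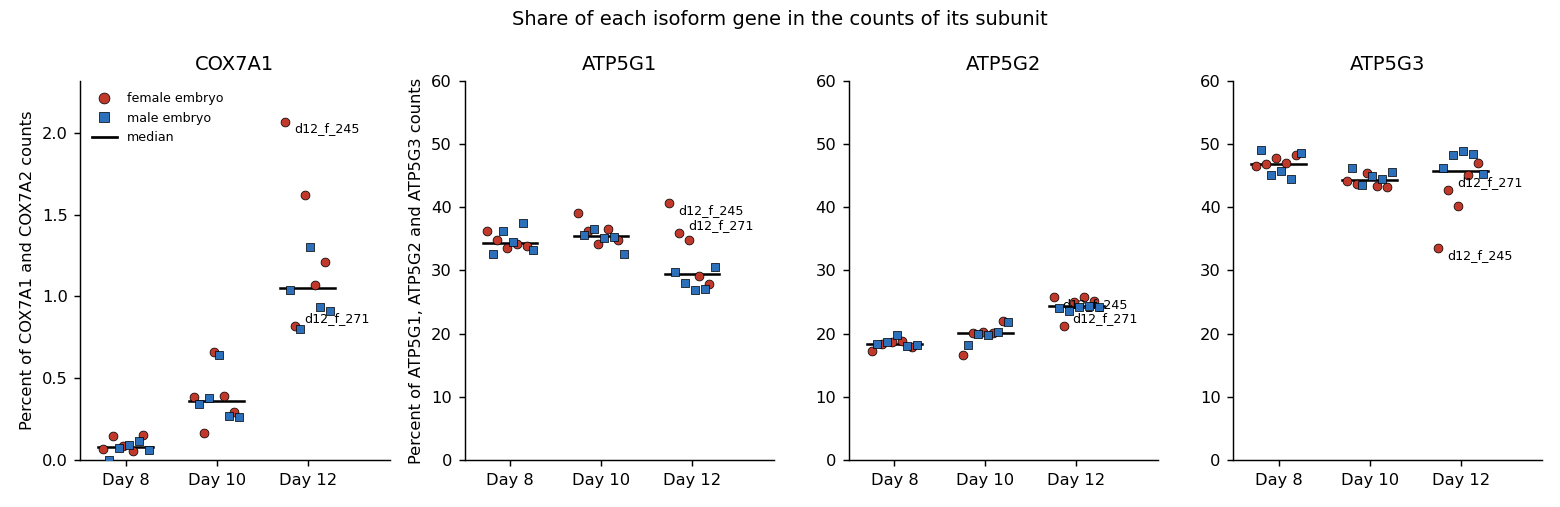
Shares within each embryo by day (percent of counts, not corrected for transcript length): COX7A1 in the counts of COX7A1 and COX7A2, and ATP5G1, ATP5G2 and ATP5G3 in the counts of the 3 subunit c genes. COX7A1 reached 0.801% to 2.07% on Day 12, and ATP5G2 went from a median of 18.3% on Day 8 to 24.3% on Day 12.

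Complex V, the ATP synthase, has a catalytic F1 head whose alpha and beta subunits are ATP5A1 and ATP5B. ATP5B, which holds the catalytic sites, ran from 2683 to 3156 CPM on Day 8 (median 2987), from 3214 to 3734 CPM on Day 10 (median 3309) and from 1577 to 2643 CPM on Day 12 (median 2388). No 2 days overlapped. It rose by 0.20 (SE 0.07, adjusted p = 0.0139), by 0.02 and not called with library size alone, and then changed by -0.54 (SE 0.07, adjusted p = 7.78e-08), or -0.50 without the apart pair. ATP5A1 had medians of 2556, 2622 and 1819 CPM, with log2 fold changes of 0.01 (adjusted p = 0.918) and -0.55 (SE 0.08, adjusted p = 3.23e-07). ATP5C1, the gamma subunit of the rotating stalk, followed ATP5B with changes of 0.21 (adjusted p = 0.00952) and -0.54 (adjusted p = 3.04e-08). ATP5E, the epsilon subunit at the foot of that stalk, rose from a median of 122 CPM (101 to 139) to 203 CPM (175 to 261) with no overlap, by 0.79 (SE 0.17, adjusted p = 0.000245). Its second change was -0.37 (adjusted p = 0.0618), and -0.69 (adjusted p = 1.18e-05) without the pair. ATP5D, the delta subunit, was called in neither interval (0.08 and 0.18), and the second value was -0.01 without the pair.

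The peripheral stalk holds the F1 head still against the turning rotor. ATP5F1, its b subunit, ran from 519 to 605 CPM on Day 8 (median 553), from 641 to 758 CPM on Day 10 (median 689) and from 375 to 530 CPM on Day 12 (median 397). The Day 10 embryos lay above those of both other days. It rose by 0.30 (SE 0.06, adjusted p = 0.000121) and then changed by -0.71 (SE 0.06, adjusted p = 1.99e-11). Of the stalk's 4 members (ATP5F1, ATP5H, ATP5J and ATP5O), 3 were called higher on Day 10, all but ATP5H, and all 4 were called lower on Day 12. The 3 small membrane subunits ATP5I, ATP5J2 and ATP5L, which lie where ATP synthase dimers bend the membrane, were called higher by 0.58, 0.63 and 0.45. ATP5J2 and ATP5L were called lower on Day 12, at -0.34 (adjusted p = 0.019) and -0.38 (adjusted p = 0.00029), and ATP5I was called lower only without the apart pair (-0.58, adjusted p = 9.23e-06, against -0.22, adjusted p = 0.258).

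ATP5G1, ATP5G2 and ATP5G3 encode the same mature subunit c of the rotor ring and differ in the import sequence that is cut off. ATP5G1 ran from 497 to 701 CPM on Day 8 (median 590), from 627 to 885 CPM on Day 10 (median 718) and up to 727 CPM on Day 12 (median 378). It rose by 0.30 (SE 0.12, adjusted p = 0.0295), a call lost without d10_f_315 (0.26), d08_m_103 or d08_m_136 (0.27 each), and then changed by -0.72 (SE 0.12, adjusted p = 3.26e-06), or -0.90 without the apart pair. ATP5G2 had medians of 312, 408 and 329 CPM, with changes of 0.37 (adjusted p = 6.23e-05) and -0.25 (adjusted p = 0.00316), the latter not called with library size alone (-0.06). ATP5G3 had medians of 796, 902 and 590 CPM and changes of 0.18 (adjusted p = 0.0422) and -0.54 (adjusted p = 3.12e-07). The first ATP5G3 call was lost, at 0.16 to 0.18, without any 1 of d08_f_124, d08_f_129, d08_f_130, d08_m_103, d08_m_121, d08_m_133, d08_m_136, d10_f_315, d10_f_336, d10_m_318, d10_m_321, d10_m_333 and d10_m_435. The share of ATP5G2 in the counts of the 3 genes had medians of 18.3%, 20.1% and 24.3% over the days, and that of ATP5G1 34.3%, 35.5% and 29.4%. The ATP5G2 share lay between 17.2% and 19.7% in Day 8 embryos, 16.7% and 22% in Day 10 embryos, and 21.3% and 25.8% in Day 12 embryos. Day 12 thus lay above Day 8 and overlapped with Day 10 in the plot of shares, and without the apart pair it ran from 23.6%, above every Day 10 embryo. ATP5S, matched by symbol, changed by 0.38 (adjusted p = 0.00446) and -0.56 (adjusted p = 8.39e-05), the latter not called in male embryos alone (-0.36), and ATP5SL by -0.08 and -0.09 with no call.

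**Figure D4:**
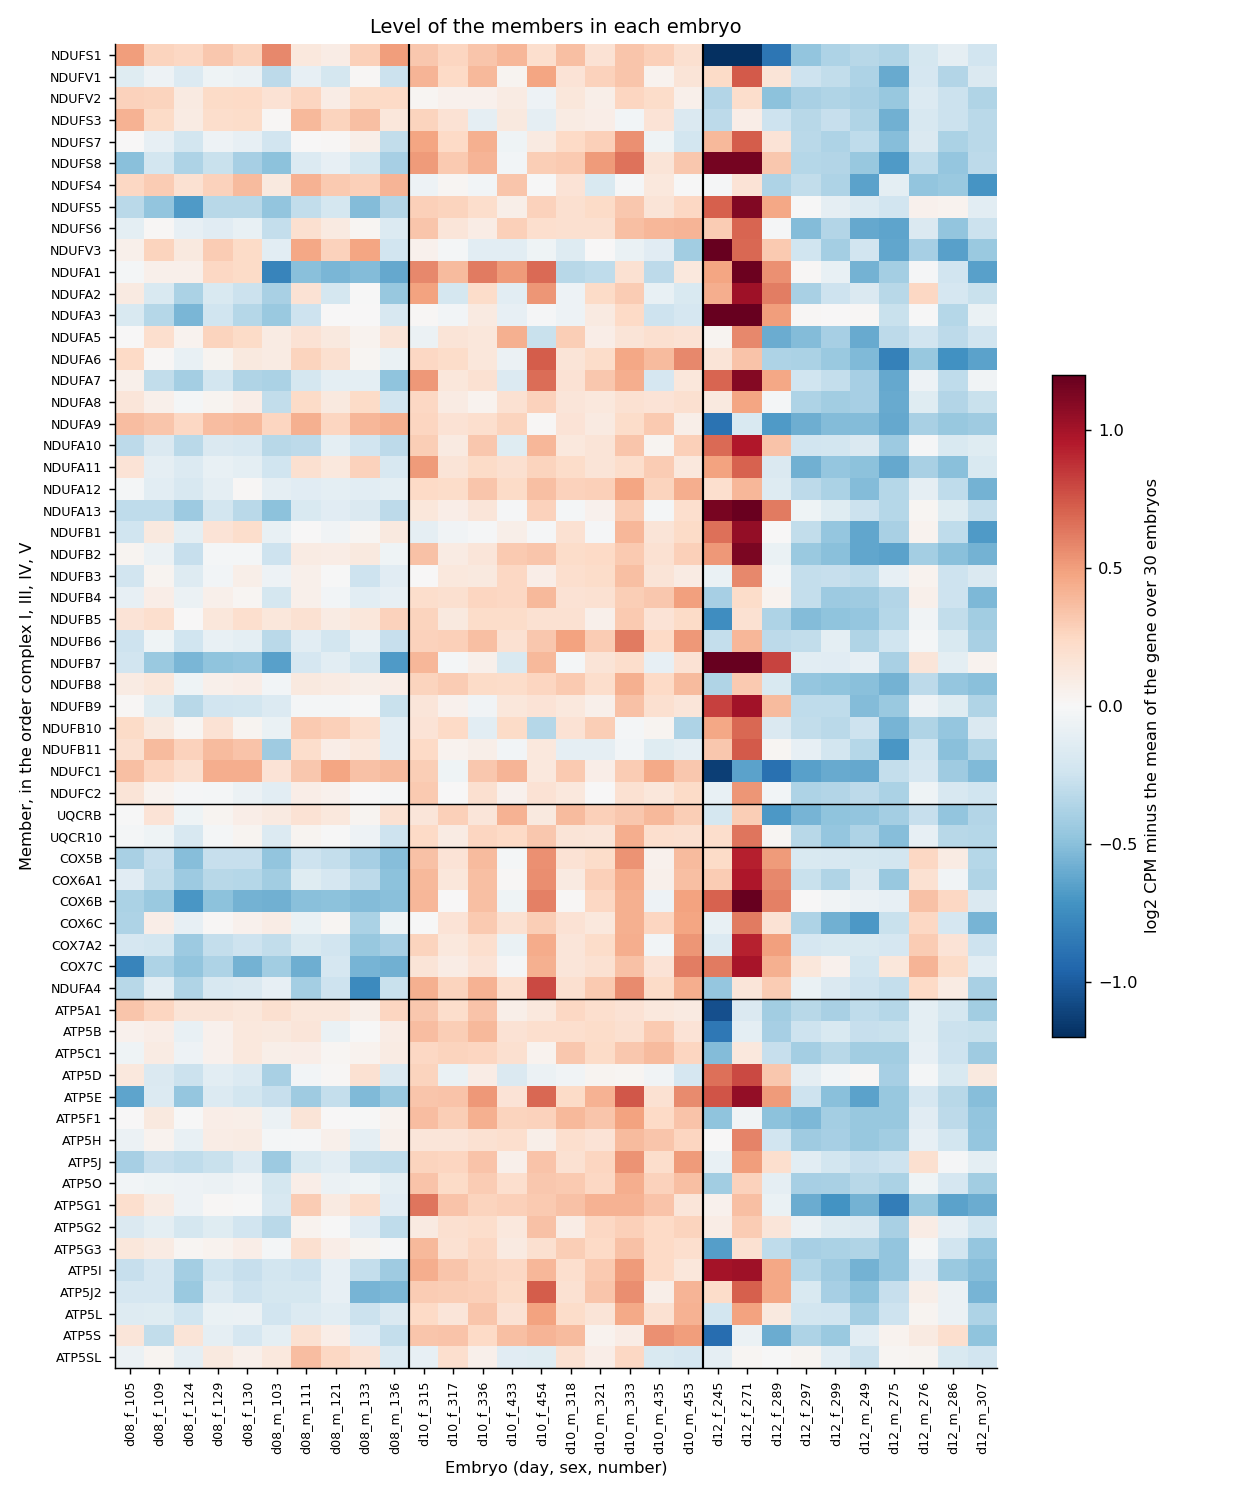
Log2 CPM of 61 of the 63 members (rows, grouped by complex, COX7A1 being 1 of those not shown) in 30 embryos (columns, by day and sex), as the difference from the mean of the gene over all embryos, with colours limited to 1.2 above or below it. Day 10 columns are mostly above the mean and Day 12 columns below it, apart from d12_f_271 and, in part, d12_f_245, d12_f_289 and d12_m_276.

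The heat map of the members shows how far single embryos set the Day 12 spread. The median SD of the members' log2 levels was 0.12, 0.13 and 0.37 from the first day to the last, and 0.21 on Day 12 without the apart pair. Genes of like level had medians of 0.13, 0.19, 0.35 and 0.23. Embryo d12_f_271 was the highest of its day for 51 members, at a median of 0.81 above the day's median level. Embryos d12_f_245 and d12_f_289 stood at 0.36 and 0.29. The male d12_m_276 stood at 0.17, with 56 members above the day's median. Another male, d12_m_275, was lowest for 24 members, at -0.15. On Day 10, d10_m_333 was highest for 22 members (median 0.13), and on Day 8, d08_m_103 was lowest for 22 (median -0.11). By member, NDUFA12 had the smallest SD on Day 8 (0.06) and ATP5SL on Day 12 (0.11). COX7A1 varied most on Days 8 and 10 (0.62 and 0.61) and NDUFB7 on Day 12 (0.67).

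Female and male embryos differed in 1 called member on Day 8, NDUFA1, of 62 tested (0.658% of all genes were called). No member was called on Day 10 (0.223% of all genes) or on Day 12 (0.123% of all genes) by the quasi-likelihood test. At an unadjusted p under 0.05, 2, 3 and 26 members passed on Days 8, 10 and 12. How many of all genes passed that unadjusted limit is not given here. By edgeR's robust GLM and by DESeq2, 1 member each was called on Day 10 and 0 on Day 12. Median log2 differences, female minus male, were 0.00, 0.00 and 0.38 on Days 8, 10 and 12. Over all genes these medians were -0.02, -0.01 and -0.00. On Day 12, 55 of 63 members lay above 0. The apart pair is female. Without it (3 females and 5 males) the Day 12 median was 0.11, against -0.02 over all genes. In that fit 5 members had an unadjusted p under 0.05 and 0 were called. In 1 fit over all 30 embryos, 31 members were called on Day 12, 28 of them higher in females, against 20.3% of all genes, and without the pair 0 members and 0.214% of all genes were called.

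**Figure D5:**
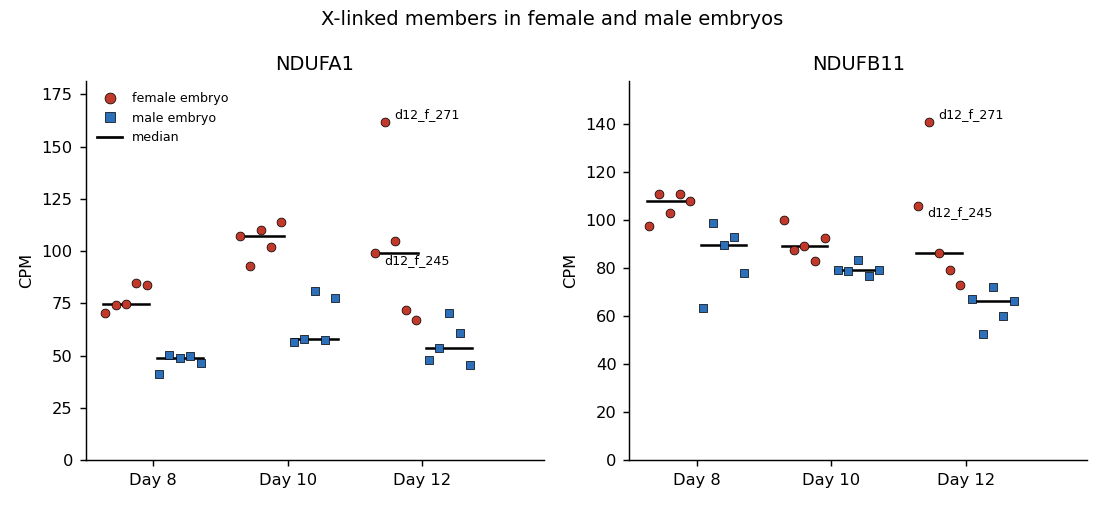
Levels (CPM) of the X-linked members NDUFA1 and NDUFB11 in each female and male embryo by day (5 of each sex a day, bars at the median). NDUFA1 was higher in every female than in every male on Days 8 and 10, at 70.4 to 84.8 against 41.2 to 50.3 CPM on Day 8.

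NDUFA1 (chromosome X, 98219717 to 98223873) and NDUFB11 (chromosome X, 41770929 to 41773879) are the X-linked members, and both belong to the membrane arm of complex I. NDUFA1 had a mean of 77.6 ± 6.38 CPM in females and 47.3 ± 3.66 CPM in males on Day 8 (SD, n = 5 each). The log2 difference was 0.72 (SE 0.08, edgeR quasi-likelihood adjusted p = 0.000508), and it was not called in 1 fit over all 30 embryos. On Day 10, means were 105.3 ± 8.24 and 66 ± 12.2 CPM and the ranges again did not overlap (93.1 to 114 against 56.5 to 81 CPM). The Day 10 difference of 0.66 (SE 0.13) had an adjusted p = 0.117 by edgeR's quasi-likelihood test, 0.00657 by its robust GLM and 0.000686 by DESeq2. On Day 12, means were 101 ± 37.8 and 55.7 ± 10.2 CPM, with a difference of 0.90 (edgeR quasi-likelihood adjusted p = 0.198), or 0.55 (adjusted p = 0.627) without the apart pair. NDUFB11 was at 106 against 84.5 CPM on Day 8 (0.33, adjusted p = 0.489), 90.6 against 79.3 CPM on Day 10 (0.18, adjusted p = 1) and 97.4 against 63.6 CPM on Day 12 (0.65, adjusted p = 0.198). Its Day 12 ranges of 73.1 to 141 CPM in females and 52.3 to 72.2 CPM in males did not overlap, and the difference was 0.33 (adjusted p = 0.627) without the pair. In the plot of both genes, the sexes of NDUFA1 overlap on Day 12, at 67.2 to 162 CPM in females and 45.3 to 70.5 CPM in males.

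Whether the sex difference changed between days was tested as an interaction, which called 0 members in each of the 3 comparisons of days (edgeR quasi-likelihood test). At an unadjusted p under 0.05, 0 members passed between Days 8 and 10, 24 between Days 10 and 12 and 23 between Days 8 and 12, where 100, 2473 and 2863 of all genes did. Without the apart pair, 0, 4 and 8 members passed, where 153, 683 and 1007 of all genes did. For NDUFA1 the sex difference changed by -0.04, 0.19 and 0.14 over these comparisons (adjusted p = 1, 0.697 and 0.756). For NDUFB11 it changed by -0.14, 0.42 and 0.28 (adjusted p = 1, 0.242 and 0.377), the second with an unadjusted p = 0.0352.

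Other genes of the pathway were read from lists set by their known function. Their calls stand against 29.4% of all genes called higher and 26.7% lower on Day 10, and 32.6% and 27.1% on Day 12. Complex II and cytochrome c, which the symbol rule does not reach, had 5 measured genes, of which 1 was called higher and 1 lower on Day 10 and all 5 lower on Day 12. SDHA, the catalytic subunit of complex II, had medians of 310, 402 and 299.4 CPM, with changes of 0.40 (adjusted p = 8.28e-06) and -0.40 (adjusted p = 4.12e-06). CYCS, cytochrome c itself, fell from 1418 to 1048 and 594 CPM (-0.39, adjusted p = 0.00654, and -0.76, adjusted p = 2.09e-06). NDUFAB1, the acyl carrier protein of complex I, changed by -0.10 (adjusted p = 0.376) and -0.40 (adjusted p = 0.000563). By median, SDHA was thus highest on Day 10 and CYCS on Day 8.

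The factors that assemble the complexes moved in different directions. Of 17 complex I assembly genes measured, 3 were called higher and 9 lower on Day 10 (median -0.23), where the 36 subunits had 15 and 3. TMEM126A, needed to build the membrane arm, went from 80.4 to 40.2 CPM (-1.02, adjusted p = 6.12e-08) and NDUFAF4 from 37.2 to 19.3 CPM (-0.87, adjusted p = 1.13e-05), while NDUFAF3, which works with NDUFAF4, rose by 0.79 (adjusted p = 0.0001). From Day 10 to Day 12, 2 were called higher and 10 lower (median -0.27), with TMEM126B at -0.69 (adjusted p = 7.15e-10). For complex III, 1 of 3 was called higher and 1 lower on Day 10, LYRM7 by 0.39 (adjusted p = 0.00434) and BCS1L, which inserts the Rieske protein, by -0.65 (adjusted p = 1.76e-05), and on Day 12 1 was called higher and 2 lower. For complex IV, 2 of 8 were called higher and 2 lower on Day 10, and 0 and 1 on Day 12, or 0 and 3 without the apart pair. PET100 rose by 0.71 (adjusted p = 0.00825) and FASTKD3 fell (-0.87, adjusted p = 3.79e-09). For complex V, 3 of 5 were called higher on Day 10 and 3 lower on Day 12, FMC1 rising by 1.06 (adjusted p = 2.89e-07) and ATPIF1, the inhibitor of the ATPase, by 0.54 (adjusted p = 5.18e-06), before ATPIF1 fell again (-0.34, adjusted p = 0.00143).

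Genes that copy and read mitochondrial DNA were mostly called lower on Day 10. Of 13 measured, 10 were called lower and 1 higher on Day 10 (median -0.51), where 26.7% and 29.4% of all genes were. On Day 12, 3 were called lower and 2 higher (median -0.09), where 27.1% and 32.6% of all genes were, and 4 lower and 0 higher without the apart pair. TFAM, which packs mitochondrial DNA and starts its transcription, ran from 159 to 224 CPM on Day 8 (median 178), from 49.9 to 117 CPM on Day 10 (median 76.8) and from 21 to 78.6 CPM on Day 12 (median 55.2). No Day 10 embryo reached the Day 8 range, and its changes were -1.18 (SE 0.18, adjusted p = 1.74e-06) and -0.67 (adjusted p = 0.00165). The helicase TWNK changed by -1.13 (adjusted p = 2.37e-10), the polymerase POLG by -0.83 (adjusted p = 1.53e-09), and the transcription genes TFB2M and POLRMT by -0.78 (adjusted p = 2.98e-06) and -0.62 (adjusted p = 3.29e-06) on Day 10.

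Of 15 nuclear regulators of mitochondrial genes, 2 were called higher and 8 lower on Day 10 (median -0.29), against 29.4% and 26.7% of all genes. On Day 12, 4 were called higher and 5 lower (median 0.03), close to the 32.6% and 27.1% of all genes. ESRRB, an orphan nuclear receptor also used by pluripotent cells, had medians of 350, 67.4 and 0.103 CPM, and its relative ESRRG 35.2, 3.25 and 0.155 CPM. EPAS1, a hypoxia-inducible factor, rose from 6.75 to 29.8 and 391 CPM (2.20, adjusted p = 7.04e-07, and 3.19, adjusted p = 4.39e-10). GABPA, also known as NRF2, a classical activator of subunit genes, went from 159 to 139 and 50.6 CPM, by -0.15 (adjusted p = 0.206) and then -1.45 (adjusted p = 9.43e-14). The coactivator PPARGC1A had medians of 14.6, 18.2 and 5.66 CPM and fell on Day 12 (-1.48, adjusted p = 5.11e-06). NRF1, the other classical activator, changed by -0.29 (adjusted p = 0.00619) and -0.01 (adjusted p = 0.925), the latter 0.05 without the apart pair.

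Levels of marker genes for cell types also shifted over the same days, which in whole embryos does not separate cell numbers from RNA per cell. The summed level of 10 trophectoderm markers had medians of 23929, 42539 and 13432 CPM, highest on Day 10 like the members' sum, and it ran from 20808 to 25449, 32904 to 50347 and 8730 to 26918 CPM. The keratins KRT8 (medians of 12406, 25073 and 9154 CPM) and KRT18 (10415, 16491 and 2640 CPM) made up most of this sum. The transcription factors GATA2, GATA3, TFAP2A, TFAP2C and TEAD4 had lower medians on Day 10 than on Day 8. The transcription factors CDX2 (173 to 208 CPM), ELF3 (74.1 to 126 CPM) and DLX3 (54.9 to 75 CPM) had higher ones. The median log2 fold change of the list was 0.07. On Day 10, 4 of the markers were called higher and 2 lower, while 3 rose and 4 fell by Day 12. Embryo d12_f_271 had the highest sum of its day for these markers too, at 26918 CPM. Sums of 10 epiblast markers ran from 583 to 736, 837 to 2318 and 1025 to 1921 CPM. Of these markers, 3 rose and 5 fell by Day 10, then 2 rose and 7 fell by Day 12. DNMT3B had their highest median on Days 8 and 12 (303 and 754 CPM), and TDGF1 on Day 10 (593 CPM). Sums of 8 hypoblast markers ran from 764 to 1650, 778 to 1485 and 1373 to 6770 CPM, the last in d12_f_245. Of the hypoblast markers, 1 rose and 2 fell by Day 10, then 7 rose and 0 fell by Day 12. APOA1, with medians of 590, 936 and 2154 CPM, made up most of the hypoblast sum. The 3 blood cell markers measured summed to 0.0516 to 0.422, 0.174 to 7.43 and 4.2 to 88.1 CPM (2 higher on Day 10 and 1 on Day 12), and HBB had 3 counts or fewer in every Day 8 embryo. Of the endometrial markers, 5 were measured, with sums of 182 to 376, 640 to 1549 and 2352 to 6303 CPM, nearly all from UPTI (2 higher on Day 10 and 4 on Day 12). The part of these shifts in the members' changes was not tested.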

How the data were processed

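Messenger RNA of 30 single pig embryos was sequenced from stranded TruSeq libraries. Per the study's methods, reads were trimmed, mapped to Sscrofa11.1 with NCBI annotation and counted per gene, and lowly counted genes were removed. The aligner, the counting settings, the use of strand and the cut-off are not given in the sources used here, so overlapping or near-identical genes may share reads. The deposited tables hold raw read counts per gene and embryo (whole numbers, not normalized by the authors), 1 table over all 13103 genes and 1 per day with 11405, 11675 and 12220 genes. COX7A1 is not in the Day 8 table. The submitters' processing notes name edgeR.

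Gene IDs were matched to NCBI symbols, and all 63 members were found as protein-coding genes. Counts were scaled by TMM and tested with edgeR 4.0.16 (R 4.3.3), glmQLFit with robust estimation and glmQLFTest, on all genes of a table, with Benjamini-Hochberg adjustment over all genes. Days were compared in 1 fit of 3 groups of 10, sexes within the table of each day (5 against 5), and the change of the sex difference in a fit of 6 groups. The SE of a log2 fold change was taken as its size divided by the square root of F. Log2 levels used a prior count of 2. Levels were not compared between genes, since transcript lengths were not used here. The floor of 3 counts was 0.434 CPM in the smallest library, and floors cover counting error only.

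Members were named if they were among the 10 largest called rises or falls of a comparison of days, had a measured isoform partner, were X-linked, were called between sexes or were core or catalytic subunits. The values of 1 member that met this rule are not reported here, though it counts among the 63. Others were named for their role, after their values were seen. Of each other list, up to 5 called genes with the largest change were named, with a few more (NRF1, NDUFAF3, NDUFAB1 and PET100 among them) chosen after their values were seen. Lists held complex II and cytochrome c, assembly factors of complexes I, III, IV and V, mitochondrial transcription and replication, nuclear regulators, and markers of trophectoderm, epiblast, hypoblast, blood and endometrium. Members and lists were chosen with earlier results of these data known.

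Alternatives were edgeR's robust GLM, DESeq2 1.42.0, other scalings, other filters (CPM above 1, or 10 counts in 5 embryos), sex as a term, fits of 2 days, 1 sex only, 1 fit of all 30 embryos for the sexes, and each embryo left out. Fits without d12_f_245 and d12_f_271 were added after the data were seen. On simulated counts for the comparison of days over 13103 genes, the quasi-likelihood test recovered 7.33% of genes changed 1.25-fold, 48% at 1.5-fold, 76.7% at 2-fold and 96% at 4-fold, with a mean of 3.67 false calls. Only a small, random part of the genes was changed there, while in the data 29.4% were called higher and 26.7% lower on Day 10. These rates therefore need not hold for the members, of which ATP5G3 and ATP5B were called at 1.13-fold and 1.15-fold on Day 10.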

Additional observations from a re-analysis of the deposited data

Results flagged for a closer look

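Within a day, the highest or lowest embryo was set apart when its gap to the next exceeded Dixon's 95% limit for 10 embryos, which chance alone meets in about 1 in 20 groups. Of 120 groups examined over 35 named members and the sums, 14 met it, all but 2 of them on Day 12. Embryo d12_f_271 was highest on Day 12 for the sum of all members (20473 CPM, next 15441) and the sum of complex III (442 CPM, next 319). It was also highest for complex I members NDUFV1 (357 CPM, next 251), NDUFV2 (176, next 135.8), NDUFS3 (174, next 144), NDUFA1 (162, next 104.6) and NDUFB8 (204, next 144). The same held for UQCRB (216 CPM, next 152) and for the complex IV members COX6B (578, next 407) and COX7A2 (465, next 344). Embryo d12_f_245 was lowest on Day 12 for ATP5A1 (1108 CPM, next 1719) and ATP5B (1577 CPM, next 2168). On Day 10, d10_f_315 was highest for ATP5G1 (885 CPM, next 758), and on Day 8, d08_m_133 was lowest for NDUFA4 (198 CPM, next 253). These values come from single libraries and were kept in all main values.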

How the results depend on the processing

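Of 63 named calls between days, 39 kept their direction and their side of the threshold under every alternative other than leaving out 1 embryo, and 24 lost the call under at least 1. In male embryos alone, NDUFA3 turned to -0.11 from Day 10 to Day 12 and NDUFS8 to -0.17 from Day 8 to Day 12. The causes of these shifts were not tested. Counts of called members under the alternatives below are mostly given without the share of all genes called under the same alternative. Where that share is missing, a count cannot be read as a result about the members as against other genes.

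For Day 10 against Day 8 (38 higher, 3 lower, median 0.30), library size alone gave 18 higher and 9 lower at a median of 0.12. Female embryos alone (5 a day) gave 13 higher and 0 lower, male embryos alone 1 lower, and the fit of 2 days 5 lower. With 1 embryo left out, 33 to 46 were called higher and 1 to 4 lower, at medians of 0.27 to 0.31.

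For Day 12 against Day 10 (2 higher, 37 lower, median -0.34), library size alone gave 7 higher and 22 lower at a median of -0.15. The robust GLM, sex as a term and the fit of 2 days each gave 1 higher. Female embryos alone gave 22 lower at a median of -0.23 and 2 members by the stricter rule, and male embryos alone 0 higher, a median of -0.49 and 0 by the stricter rule. With 1 embryo left out, 1 to 2 were called higher and 37 to 46 lower, at medians of -0.44 to -0.30.

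For Day 12 against Day 8 (18 higher, 20 lower, median -0.05), the robust GLM gave 11 higher, upper quartile factors a median of 0.03, female embryos alone a median of 0.05 and 4 members by the stricter rule, and male embryos alone 5 higher, 31 lower and a median of -0.24. With 1 embryo left out, 12 to 21 were called higher and 18 to 29 lower, at medians of -0.18 to -0.01. By the stricter rule, leaving out 1 embryo gave 1 member in each comparison.

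Fits without d12_f_245 and d12_f_271 were a choice made after the data were seen. They called 5 members lower on Day 10 (30% of all genes) and 1 higher on Day 12 (33.4% of all genes), the latter at a median of -0.48. From Day 8 to Day 12 they called 11 higher and 33 lower (40.5% and 34.9% of all genes) at a median of -0.22. Between sexes, 1 fit of all 30 embryos called 0 members on Day 8 and 31 on Day 12, and without this pair it called 1 on Day 10. On Day 10 the robust GLM and DESeq2 each called 1. With 1 embryo left out, 1 member was called on Day 8 and 0 on Days 10 and 12. Female and male embryos of the same sow were among those of a day, but the labels do not give the gilt of each embryo. A paired analysis was therefore not possible.

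Depth limits COX7A1, with 35 counts over the Day 8 embryos. For sexes, the simulated test recovered 76%, 64% and 44% of genes changed 2-fold on Days 8, 10 and 12, and 42%, 14% and 4% at 1.5-fold.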
